A study of Caenorhabditis elegans with 18 samples.

Results

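The glutathione peroxidase family of Caenorhabditis elegans was followed across worms exposed to hydrogen peroxide (H2O2), worms given TRF, worms given both, and untreated worms. TRF stands for tocotrienol-rich fraction, a mixture of vitamin E compounds. The genes gpx-1 to gpx-7 were chosen by their symbol, with no use of their values, and each was represented by 1 probe set, so that 7 of the 17118 genes named on the array, and 7 of its 22625 probe sets, are described. A probe set is a group of short array probes for 1 transcript. All 7 passed the filter on low signals and were among the 13529 probe sets tested. The related gene gpx-8, which RefSeq annotates as a pseudogene, had 2 probe sets that did not pass the filter, with signals from 0.479 to 42.2.

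Glutathione peroxidases reduce hydrogen peroxide and lipid hydroperoxides to water and lipid alcohols, and they draw the electrons from glutathione or, in some family members, from thioredoxin. In C. elegans, gpx-1, gpx-2, gpx-6 and gpx-7 are homologues of the mammalian phospholipid hydroperoxide glutathione peroxidase, the enzyme that repairs oxidised membrane lipids and that works beside vitamin E in limiting lipid peroxidation. The products of gpx-3 and gpx-5 resemble the secreted plasma glutathione peroxidase of mammals. In the RefSeq annotation gpx-5 and gpx-3 are direct neighbours.

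Total RNA of wild-type (N2) worms was hybridised to 18 Affymetrix arrays, 1 per sample, in 4 groups. The TRF+H2O2+TRF group (n = 4) received TRF before and after an H2O2 exposure, from hatching to day 3 of adulthood, and the labels do not repeat the dose and time of that exposure. The H2O2 group (n = 5) had a 2 h exposure at the last larval stage (L4) to H2O2 at 0.3 mM, the TRF group (n = 4) received TRF throughout life, and the control group (n = 5) developed and aged untreated. All worms were grown at the same temperature on Escherichia coli OP50, no dose of TRF is given in the labels, and the age at which RNA was taken is not stated for the H2O2, TRF and control groups. Whether replicates came from separate cultures is not in the labels, so the p-values reflect nothing but the variation among these arrays, which may be technical, and precision is set by how few arrays each group has.

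Values are MAS5 signals, a linear brightness scale on which every array had been set to the same trimmed mean, and fold changes are differences of log2(signal + 1), the first group named minus the second. Array quality was even, with a mean correlation of each array to the other 17 between 0.955 and 0.971. Tissue marker signals were less even. The mean log2 signal of 24 sperm genes ran from 6.25 to 9.94 over the arrays, that of 12 body wall muscle genes from 10.38 to 11.43, that of 6 hypodermal genes from 9.08 to 10.06, and that of 9 germline genes from 10.48 to 11.04.

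The family as a whole showed no change of level that passed a test between groups. With limma and Benjamini-Hochberg adjustment at 0.05 over all probe sets tested, 0 of the 7 genes were called in H2O2 against control (0% of the 13529 probe sets), 0 in TRF against control (0.00739%), 0 in TRF+H2O2+TRF against H2O2 (0%), 0 in TRF+H2O2+TRF against control (0%) and 0 in TRF+H2O2+TRF against TRF (0%). An unadjusted limma p under 0.05 was reached by 2.34%, 3.5%, 2.23%, 2.84% and 1.46% of all probe sets in these 5 comparisons, and among the glutathione peroxidases by gpx-3 in TRF+H2O2+TRF against TRF alone. The unpaired test that the series design names, the methods' t-test, gave unadjusted values under 0.05 to 2.96%, 4.15%, 2.71%, 3.28% and 1.86% of all probe sets and to 0 of the 7 genes. The median log2 fold change of the 7 genes was 0.02, -0.08, 0.04, 0.13 and 0.05 in the same order, where that of all probe sets was -0.0019, 0.04, 0.02, 0.02 and -0.01. A limma test of any difference among the 4 groups called 0 of the 7 genes (0% of all probe sets, 2.73% with an unadjusted p under 0.05), with unadjusted p-values from 0.106 for gpx-3 to 0.95 for gpx-7. The signals of 2 groups were fully separated for 0 of the 7 genes in each comparison, against 0.473%, 1.18%, 0.961%, 1.03% and 1.09% of all probe sets in the order above.

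**Figure D1:**
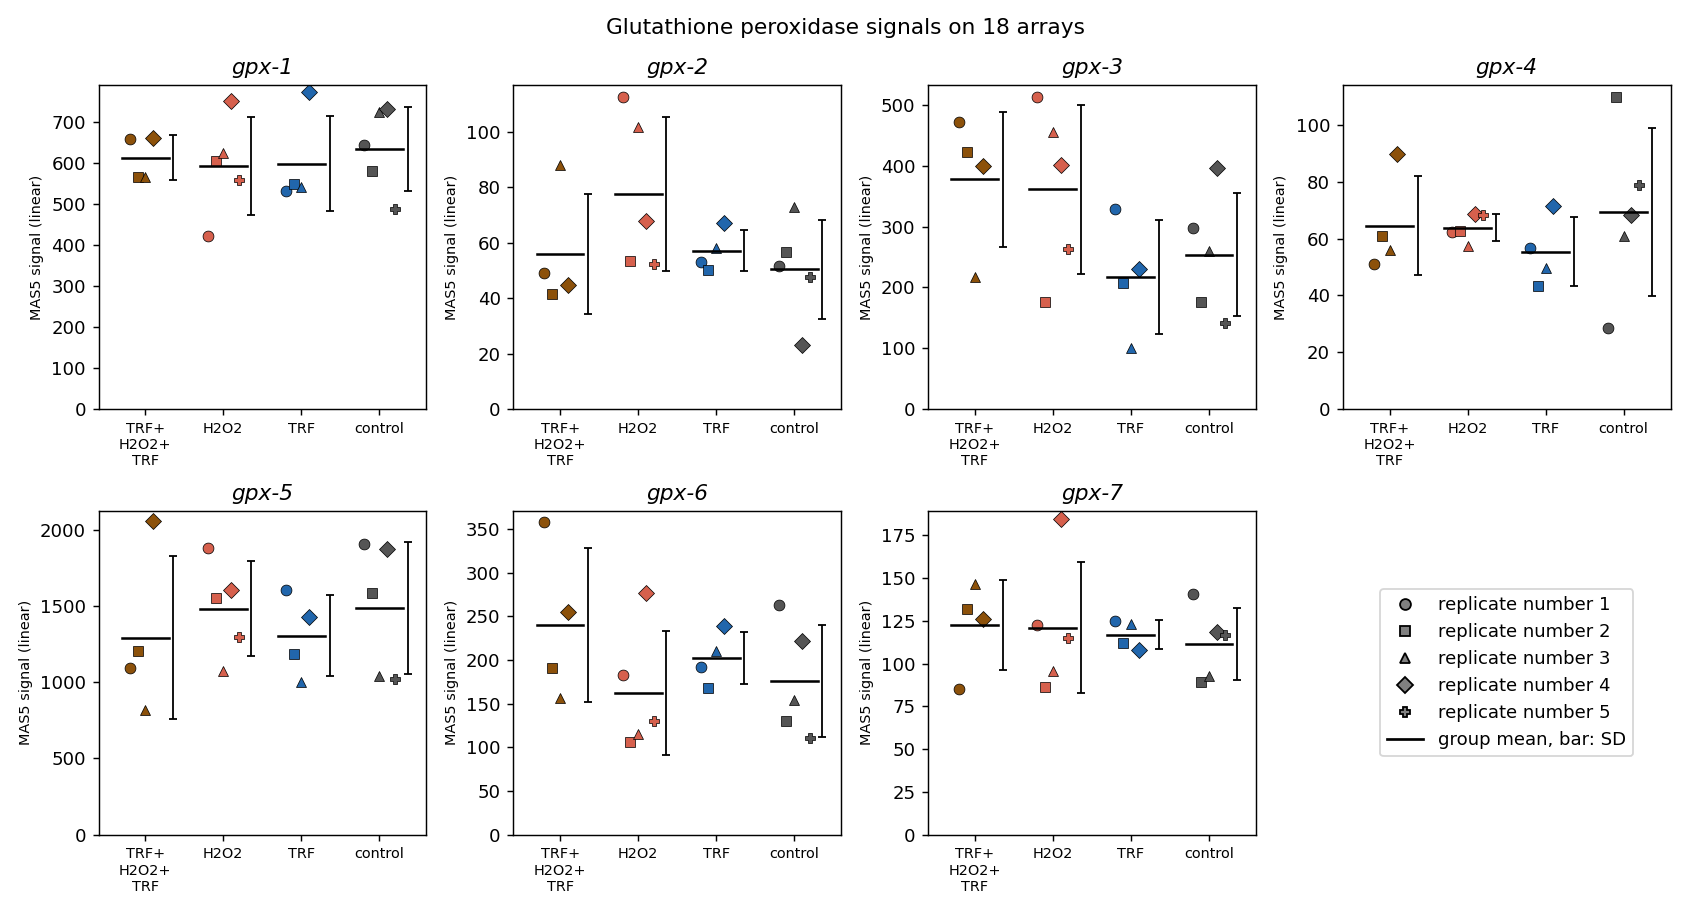
MAS5 signal (vertical axis, linear, from 0) of each glutathione peroxidase gene on the 18 arrays, by group, with a symbol per replicate number, a line at the group mean and a bar for the SD beside it. The groups overlap for every gene, and the widest span relative to the lowest signal is that of gpx-3, from 101 to 513.

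The gene that came closest to a difference between groups was gpx-3, of the secreted type. Its signals were 471, 423, 218 and 399 in TRF+H2O2+TRF replicates 1 to 4. In H2O2 worms they were 513, 177, 455, 402 and 262 in replicates 1 to 5. In TRF worms they were 329, 208, 101 and 231, and in control worms 298, 176, 259, 396 and 141. Each exposed group held 3 arrays at or above 399, a level read from these values, and control replicate 4, at 396, lay just below it. The lowest array of each exposed group, 218 and 177, lay inside the range of the TRF and control arrays. The group means were 378 ± 111 (SD, n = 4) in TRF+H2O2+TRF, 362 ± 139 (n = 5) in H2O2, 217 ± 93.7 (n = 4) in TRF and 254 ± 101 (n = 5) in control worms. Ordered by level, TRF+H2O2+TRF, H2O2, control and TRF, each mean lay closer to the next than the larger of their SDs.

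Within TRF-fed worms, gpx-3 had a log2 fold change of 0.86 ± 0.354 (SE) for TRF+H2O2+TRF against TRF, a 1.81-fold difference with a 95% interval from 1.05 to 3.12, an unadjusted limma p of 0.0346 and an adjusted p of 1. By their labels the 2 groups differ in TRF feeding as well, to day 3 of adulthood or throughout life. The age at collection is not stated for TRF. The replicate numbers were taken to pair the arrays of these 2 groups, by correlations of residuals in these same data. The labels do not say what the numbers mean. The signal of gpx-3 was higher in TRF+H2O2+TRF than in TRF in 4 of 4 pairs, by 0.52, 1.02, 1.10 and 0.79 on the log2 scale. With the number as a block, limma gave the same fold change with an SE of 0.135, an unadjusted p of 0.00018 and an adjusted p of 0.235, which placed gpx-3 at rank 10 of 13529. With the block, 6.46% of all probe sets had an unadjusted p under 0.05 and 1 (0.00739%) was called, which was not one of this family.

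In worms without TRF, gpx-3 had a log2 fold change of 0.50 ± 0.329 (SE) for H2O2 against control, with a 95% interval from 0.866-fold to 2.31-fold and an adjusted limma p of 1. It was higher in H2O2 than in control in 5 of 5 pairs, but unevenly. The difference was 0.78, 0.81 and 0.89 in numbers 1, 3 and 5, and 0.0038 and 0.02 in numbers 2 and 4, which is close to 0. The blocked limma fit gave an SE of 0.166, an unadjusted p of 0.0117, a level under 0.05 that 9.51% of all probe sets reached, and an adjusted p of 0.352 (0% called). Over all probe sets, 5.28% were higher in H2O2 in all 5 pairs, 6.13% were higher in TRF+H2O2+TRF than in TRF in all 4 pairs, and 0.88%, 119 probe sets with gpx-3 among them, were higher in both.

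A contrast of the exposed groups with the unexposed groups over all 18 arrays was added after these values had been seen. It pools groups whose TRF feeding and ages are not labelled as alike. It gave a log2 difference of 0.68 ± 0.261 (SE) for gpx-3 with an adjusted limma p of 1, where 0 probe sets (0%) passed. With the replicate block the adjusted p was 0.411 and 7 probe sets (0.0517%) passed, with 0 glutathione peroxidases among them. This block spans all groups, and the numbers do not pair some of them by the measure used here. The interaction term is the TRF+H2O2+TRF minus TRF difference less the H2O2 minus control difference. Exposure, TRF feeding and age are not labelled as alike in both differences, so the term need not isolate H2O2 in TRF-fed worms. For gpx-3 the term had an adjusted limma p of 1, where 0% of probe sets were called and 1.14% had an unadjusted p under 0.05. Its value was 0.36 ± 0.522. Leaving out single arrays moved it between 0.028, without TRF replicate 3, and 0.60, without TRF+H2O2+TRF replicate 3. TRF alone gave gpx-3 a log2 fold change of -0.25 ± 0.358 against control, and TRF+H2O2+TRF gave 0.61 ± 0.311 against control and 0.11 ± 0.322 against H2O2. These comparisons share arrays, so they are not independent of each other. Leaving out TRF replicate 3, the lowest array of gpx-3, brought the log2 fold change of TRF+H2O2+TRF against TRF to 0.53. Leaving out control replicate 5, the lowest control array, brought that of H2O2 against control to 0.31. It also brought TRF+H2O2+TRF against control to 0.42 and TRF against control to -0.44.

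**Figure D2:**
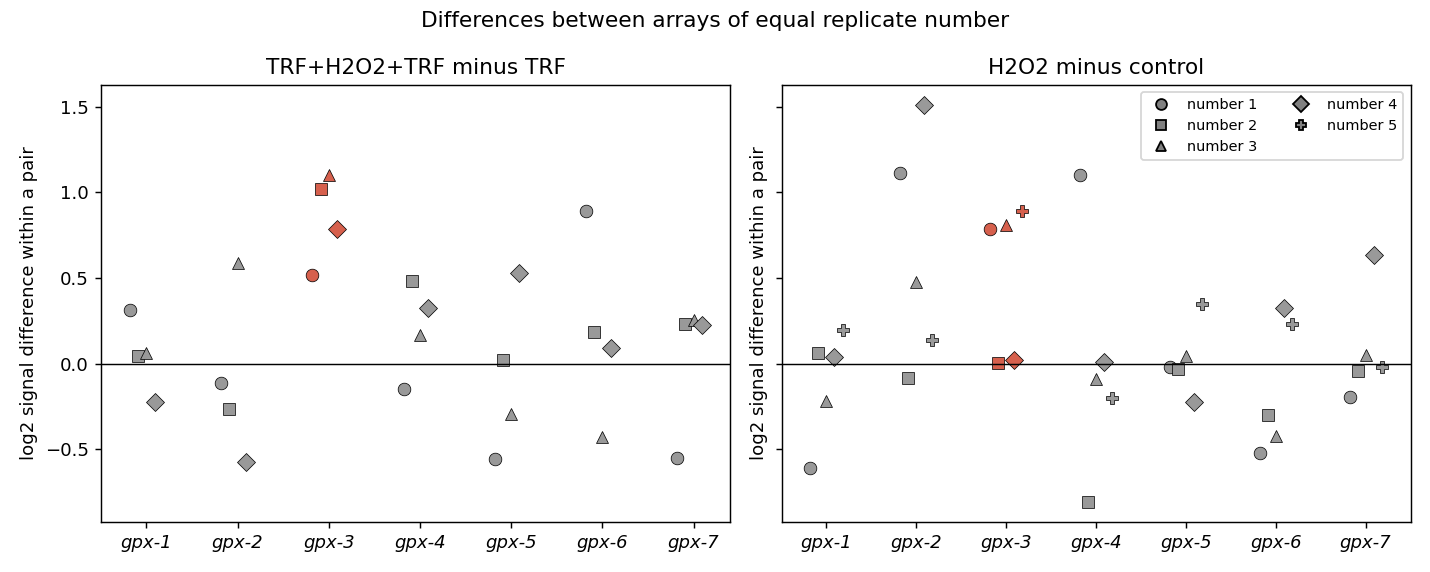
Log2 signal differences within pairs of arrays of equal replicate number (vertical axis) for the 7 genes, in TRF+H2O2+TRF minus TRF (left, 4 pairs) and H2O2 minus control (right, 5 pairs), with gpx-3 in red. For gpx-3 the 4 differences on the left lie between 0.52 and 1.10 and the 5 on the right between 0.0038 and 0.89.

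The mean of the body wall muscle markers was also higher in the H2O2-exposed array of each pair, though none of these genes passed the test. Of the 12 marker genes, 0 were called in H2O2 against control, 7 had an unadjusted limma p under 0.05 and 11 had a higher mean in H2O2, where 49.5% of all probe sets had a higher mean. Of the same genes in TRF+H2O2+TRF against TRF, 0 were called, 1 had an unadjusted limma p under 0.05 and 12 had a higher mean, where 46.5% of all probe sets did. Their mean log2 signal ran from 10.54 to 11.36 in TRF+H2O2+TRF, from 10.78 to 11.43 in H2O2, from 10.38 to 10.99 in TRF and from 10.40 to 11.08 in control worms, and all 12 passed the filter on low signals. It was higher in H2O2 than in control in 5 of 5 pairs, by 0.36, 0.28, 0.24, 0.30 and 0.69 for numbers 1 to 5, so that numbers 2 and 4 had a muscle difference where that of gpx-3 was close to 0. It was also higher in TRF+H2O2+TRF than in TRF in 4 of 4 pairs, by 0.27, 0.27, 0.16 and 0.44 for numbers 1 to 4, and number 3, with the smallest muscle difference, had the largest gpx-3 difference. Across the 18 arrays, Pearson's r between gpx-3 and the muscle mean was 0.80, higher than for all but 0.977% of the probe sets, and it was 0.76 after group means were subtracted. The r of gpx-3 was 0.77 with 7 pharyngeal markers, 0.73 with 10 neuronal markers, 0.68 with 13 intestinal markers and -0.66 with the germline markers. With group means subtracted, these were 0.84, 0.80, 0.67 and -0.77, so the pharyngeal and neuronal values were above that of muscle. These are descriptions over arrays that share replicate numbers, and the part of tissue content in the gpx-3 values was not tested. In RNA of whole worms, fewer cells of a type and less RNA per cell cannot be told apart.

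**Figure D3:**
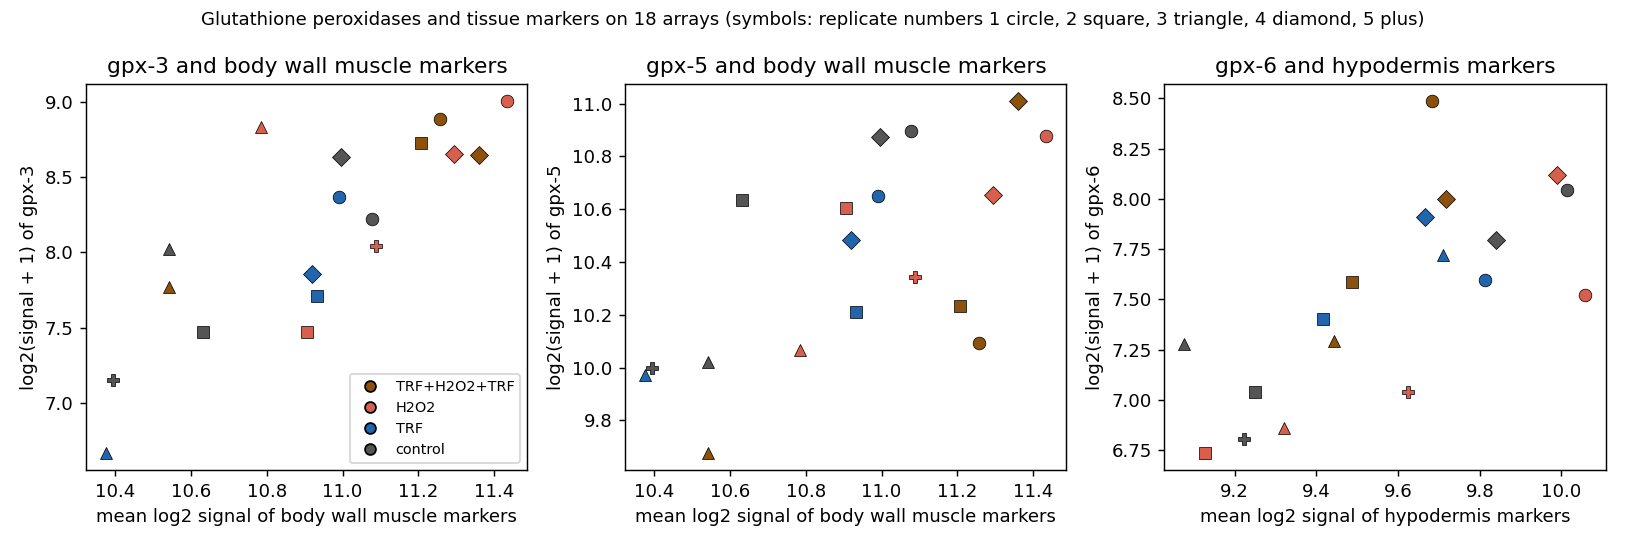
Log2 signal of gpx-3, gpx-5 and gpx-6 (vertical axes) against the mean log2 signal of body wall muscle or hypodermis markers (horizontal axes) on the 18 arrays, coloured by group with a symbol per replicate number. Pearson's r is 0.80 for gpx-3 and 0.65 for gpx-5 with muscle, and 0.73 for gpx-6 with hypodermis.

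The other gene of the secreted type, gpx-5, differed little between groups and strongly between replicate numbers. Its signals were 1091, 1203, 818 and 2060 in TRF+H2O2+TRF replicates 1 to 4. In H2O2 worms they were 1881, 1554, 1071, 1609 and 1300 in replicates 1 to 5. In TRF worms they were 1607, 1185, 1002 and 1430, and in control worms 1906, 1587, 1039, 1877 and 1023. Among numbers 1 to 4, the array of number 3 was the lowest of its group in 4 of 4 groups. The 4 arrays of number 3 lay between 818 and 1071 and the 4 of number 4 between 1430 and 2060, with no overlap. Numbers 3 and 4 were picked after the values were seen, with no count over all probe sets.

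Over the 16 arrays numbered 1 to 4, the number held 65.2% of the sum of squares of gpx-5 and the group 14.5%, where the medians of all probe sets tested were 34.8% and 14.8%. A limma F test of the number, added after the data were seen, gave gpx-5 an adjusted p of 0.0197, and 8.76% of all probe sets passed it. The gpx-5 call was lost with the arrays centred on their medians (adjusted p = 0.0574) and without the H2O2 (0.0691), TRF (0.0675) or control (0.11) group. What the numbers stand for is not in the labels. The mean log2 signal of the muscle markers was 10.38 to 10.78 on the arrays of number 3 and 10.92 to 11.36 on those of number 4. The same arrays did not overlap for pharyngeal markers (7.04 to 7.42 on number 3 and 7.56 to 7.71 on number 4) and neuronal markers (7.58 to 7.71 and 7.93 to 8.15). Number 3 was the higher of the 2, again without overlap, for germline markers (10.71 to 10.97 and 10.48 to 10.63) and for oocyte and eggshell markers (12.82 or above and 12.62 to 12.74). Numbers 3 and 4 overlapped for hypodermal (9.08 to 9.71 and 9.67 to 9.99), intestinal (11.98 to 12.08 and 11.96 to 12.22) and sperm markers (8.39 to 9.25 and 6.25 to 9.51). Numbers 3 and 4 were set side by side for the markers because of their gpx-5 values. The part of tissue content in the gpx-5 values was not tested.

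Between groups, the means of gpx-5 were 1293 ± 536 (SD, n = 4) in TRF+H2O2+TRF, 1483 ± 309 (n = 5) in H2O2, 1306 ± 266 (n = 4) in TRF and 1486 ± 434 (n = 5) in control worms. The H2O2 and control means were nearly equal, with a log2 fold change of 0.02 and a 95% interval from 0.742-fold to 1.39-fold. With TRF, gpx-5 was lower than in the control array of equal number in 4 of 4 cases, by 0.05 to 0.42 on the log2 scale, as were 7.07% of all probe sets. The numbers do not pair the arrays of these 2 groups by the measure used here, and the unblocked limma fit put the log2 fold change at -0.16 ± 0.22 (SE), adjusted p 0.995.

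Of the phospholipid hydroperoxide type, gpx-6 differed between replicate numbers in a test that it passed narrowly and in no alternative run. Its signals were 358, 191, 156 and 255 in TRF+H2O2+TRF replicates 1 to 4, and 183, 106, 115, 277 and 130 in H2O2 replicates 1 to 5. They were 192, 168, 210 and 239 in TRF worms, and 263, 130, 154, 221 and 111 in control worms. Arrays of number 4 ran from 221 to 277 in all 4 groups, above every array of number 2, which ran from 106 to 191. Numbers 2 and 4 were likewise picked after the values were seen, with no count over all probe sets. The number held 57.2% of the sum of squares over numbers 1 to 4 and the group 17.5%. The medians of all probe sets tested were 34.8% and 14.8%. The F test of the number gave an adjusted limma p of 0.0451, close to the threshold, and 8.76% of all probe sets passed it. This adjusted p was 0.0684 after quantile normalization, 0.0556 after median centring and between 0.0687 and 0.162 without any 1 group. Without any 1 number it was between 0.0538 and 0.128, so the call was lost in every alternative run.

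The gpx-6 means were 240 ± 88.4 (SD, n = 4) in TRF+H2O2+TRF, 162 ± 70.8 (n = 5) in H2O2, 202 ± 29.9 (n = 4) in TRF and 176 ± 64.0 (n = 5) in control worms. TRF+H2O2+TRF against H2O2 gave a log2 fold change of 0.59 ± 0.319 (SE), with a 95% interval from 0.932-fold to 2.42-fold, an unadjusted limma p of 0.0884 and an adjusted p of 1. Leaving out TRF+H2O2+TRF replicate 1 brought this log2 fold change to 0.37. Against the control array of equal number, TRF+H2O2+TRF was higher in 4 of 4 cases, by 0.02 to 0.55, as were 6.87% of all probe sets. The numbers were not taken to pair the arrays of these 2 groups. Hypodermal markers varied with gpx-6 across the arrays, with a Pearson's r of 0.73 against their mean, a value that 2.14% of the probe sets exceeded. Germline markers varied the opposite way, with an r of -0.73, a value that 97.2% of the probe sets exceeded. The part of these tissues was not tested.

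**Figure D4:**
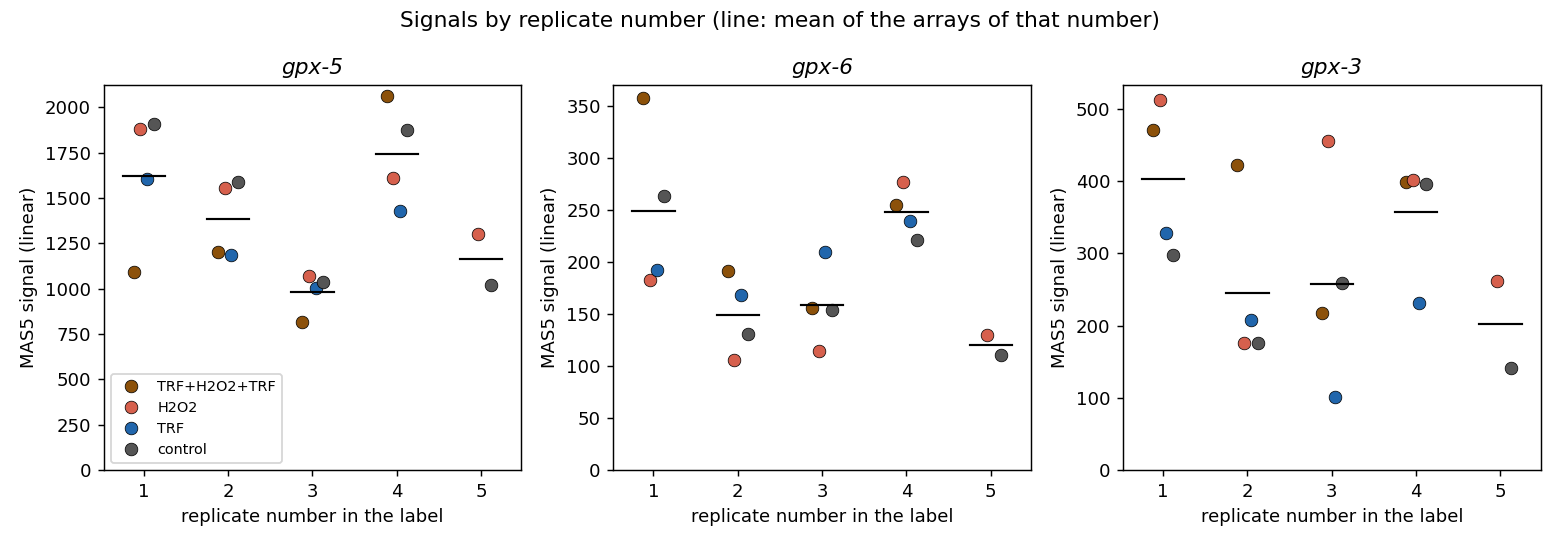
MAS5 signal (vertical axis, linear, from 0) of gpx-5, gpx-6 and gpx-3 by the replicate number in the label (horizontal axis), with groups in colour and a line at the mean of the arrays of each number. The arrays of number 3 are low for gpx-5, between 818 and 1071, and those of number 4 lie between 1430 and 2060. These numbers were picked after the values were seen.

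A member at low signal, gpx-2, had its highest values in H2O2 worms. Its signals were 112, 53.5, 102, 67.7 and 52.3 in H2O2 replicates 1 to 5, against 51.5, 56.7, 72.9, 23.1 and 47.5 in control replicates 1 to 5. They were 48.9, 41.6, 88.0 and 44.6 in TRF+H2O2+TRF replicates 1 to 4 and 53.1, 50.1, 58.2 and 67.0 in TRF replicates 1 to 4. The arrays H2O2 replicate 1 and H2O2 replicate 3 stood above the rest, and the other H2O2 arrays lay within the range of the control arrays. H2O2 against control gave a log2 fold change of 0.63 ± 0.337 (SE), a 1.55-fold difference with a 95% interval from 0.936 to 2.56, higher in 4 of 5 pairs, with an adjusted limma p of 1. With the replicate block the limma SE was 0.28, the unadjusted p 0.0456 and the adjusted p 0.515. The pair with the largest difference, 1.51, holds the lowest control array, replicate 4, and without that array the log2 fold change was 0.38. TRF+H2O2+TRF against H2O2 gave -0.46 ± 0.327 and was lower for 4 of 4 numbers, by 0.21 to 1.18 between arrays of equal number, with an adjusted limma p of 1. The numbers were not taken to pair the arrays of TRF+H2O2+TRF and H2O2, and 5.41% of all probe sets were lower for all 4 numbers. Both comparisons use the same H2O2 arrays. The geometric mean signal of gpx-2 was 57.2, the lowest of the 7 and close to the filter.

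The most even member was gpx-1, of the phospholipid hydroperoxide type, whose lowest and highest signals over the 18 arrays were 422 and 773. Its within-group SD on the log2 scale was 0.247, where the median of all probe sets tested was 0.317. The group means were 613 ± 53.9 (SD, n = 4) in TRF+H2O2+TRF, 592 ± 119 (n = 5) in H2O2, 599 ± 116 (n = 4) in TRF and 633 ± 103 (n = 5) in control worms. The 95% intervals of its fold change lay between 0.716 and 1.21 for H2O2 against control, between 0.731 and 1.22 for TRF against control and between 0.804 and 1.37 for TRF+H2O2+TRF against H2O2. Across the 18 arrays gpx-1 varied opposite to 11 oocyte and eggshell markers, with a Pearson's r of -0.69 against their mean. With the germline markers its r was -0.62. A higher r was held by 96.9% and 92.3% of the probe sets. The same values were -0.68 and -0.73 for gpx-6, and -0.39 and -0.66 for gpx-3. The part of the germline in the gpx-1 values was not tested.

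Signals of gpx-7, another member of that type, ran from 85.0 to 184, and its mean was between 112 and 123 in each of the 4 groups. Its log2 fold changes in the 5 comparisons were between 0.04 and 0.13. The 95% interval for H2O2 against control was from 0.742-fold to 1.51-fold. The level of gpx-7 followed the replicate number least, with 17.1% of its sum of squares.

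Signals of gpx-4 ran from 28.5 to 110, and both ends were control arrays. Its geometric mean signal was 61.4, and its means were 64.5 ± 17.4 (SD, n = 4) in TRF+H2O2+TRF, 63.9 ± 4.76 (n = 5) in H2O2, 55.4 ± 12.1 (n = 4) in TRF and 69.4 ± 29.5 (n = 5) in control worms. The sign of its fold change for H2O2 against control turned with quantile normalization, with median centring and with a larger pseudocount, so it has no settled direction.

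**Figure D5:**
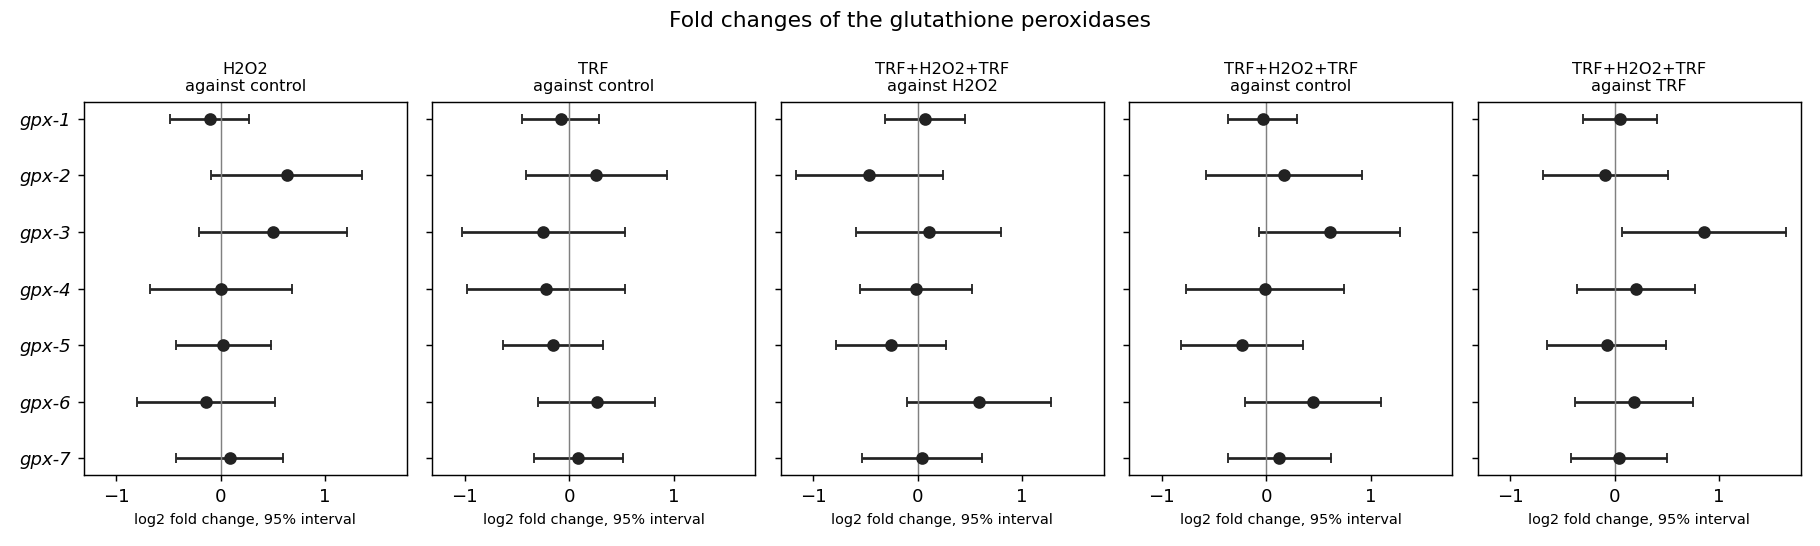
Log2 fold changes (points) with 95% intervals from limma (bars) of the 7 genes in the 5 comparisons of 2 groups. Of the 35 intervals, only that of gpx-3 in TRF+H2O2+TRF against TRF, from 0.07 to 1.64, does not include 0.

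The members did not vary as 1 block. Over the 18 arrays, Pearson's r between 2 members ran from -0.29 to 0.43. The highest values were 0.43 for gpx-3 with gpx-6, 0.43 for gpx-1 with gpx-6 and 0.40 for the neighbours gpx-3 and gpx-5. With group means subtracted, these were 0.57, 0.47 and 0.50, and gpx-5 with gpx-6 had 0.52. The arrays share replicate numbers, so these values describe the arrays and carry no test.

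The genes outside the family were ranked by their likeness to each member. Among 10279 genes outside the family, those most like gpx-3 over the 18 arrays were F25H5.2 (Pearson's r 0.93), F13C5.5 (0.93) and rhr-1, a Rhesus-type ammonium transporter gene (0.91). For gpx-5 they were hpo-6 (0.88), F42A8.1 (0.86) and ZK1321.4 (0.86), and for gpx-6 obr-2, an oxysterol-binding protein relative (0.90), fln-2, a filamin (0.89), and F38E11.9 (0.89). For gpx-1 they were M116.2 (0.86), R07E4.3 (0.84) and the ubiquitin hydrolase gene ubh-4 (0.83), and for gpx-7 oac-59 (0.81), F32H5.4 (0.81) and imp-3 (0.80). The low-signal members had weaker matches, with spp-14 (0.67), W04D2.4 (0.67) and daf-37 (0.66) for gpx-2, and pfd-4 (0.73), rnf-121 (0.66) and Y106G6D.8 (0.66) for gpx-4. The best of so many genes gives a high r on 18 arrays by selection alone, so these values only rank genes.

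The enzymes that supply and share the work of glutathione peroxidases showed no called change either. Of the 7 measured genes of glutathione synthesis and recycling, 0 were called in each of the 5 comparisons. Their median log2 fold change was -0.0049 in H2O2 against control, where that of all probe sets was -0.0019, 0.02 in TRF against control (0.04) and 0.03 in TRF+H2O2+TRF against H2O2 (0.02). The smallest p in each belonged to gss-1, glutathione synthetase, at -0.12 ± 0.163 (SE), to glrx-5, a glutaredoxin, at -0.21 ± 0.119, and to gss-1 again at 0.13 ± 0.168, each with an adjusted limma p of 1 or 0.995.

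Of the 6 superoxide dismutases and catalases, which make and remove H2O2, 0 were called. The smallest p belonged to sod-5 in H2O2 against control (0.40 ± 0.274) and in TRF against control (0.43 ± 0.268), and to sod-1 in TRF+H2O2+TRF against H2O2 (-0.19 ± 0.129). Of the 9 peroxiredoxin, thioredoxin and methionine sulfoxide repair genes, 0 were called. The smallest p belonged to msra-1, a methionine sulfoxide reductase, in H2O2 against control (0.33 ± 0.154), to the mitochondrial peroxiredoxin prdx-3 in TRF against control (-0.18 ± 0.109) and to the thioredoxin reductase trxr-2 in TRF+H2O2+TRF against H2O2 (0.61 ± 0.221, unadjusted limma p of 0.0163).

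Of the 33 glutathione S-transferases, which use glutathione to conjugate electrophiles, 0 were called, and their medians were -0.00099, -0.10 and -0.10 in the 3 comparisons named in the series design, against -0.0019, 0.04 and 0.02 for all probe sets. The smallest p belonged to gst-29 in H2O2 against control (-0.83 ± 0.293), to gstk-1 in TRF against control (-0.38 ± 0.121) and to gst-44 in TRF+H2O2+TRF against H2O2 (-0.54 ± 0.229). Of 11 genes for polyunsaturated fatty acids, a substrate of lipid peroxidation, and for the iron store ferritin, 0 were called. The smallest p belonged to ftn-2 in H2O2 against control (0.22 ± 0.105), to the desaturase gene fat-3 in TRF against control (0.76 ± 0.133, adjusted limma p of 0.301) and to ftn-1 in TRF+H2O2+TRF against H2O2 (0.66 ± 0.255). Of 8 regulators of the SKN-1 and DAF-16 stress pathways, 0 were called, with skn-1 at -0.26 ± 0.176, the kinase gene sek-1 at 0.31 ± 0.139 and skn-1 at 0.32 ± 0.165 in the same 3 comparisons.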

How the data were processed

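Per the submitters' processing notes, the authors made the deposited intensity values with MAS5 in Affymetrix Expression Console, and versions are not given in the sources used here. The values were used on the linear scale as deposited. Without the 2% highest and lowest values, the mean of each array was 499.9, so the arrays had been scaled alike. Probe sets were named through the platform annotation given with the series, and gene neighbours through RefSeq (WBcel235).

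From these values, log2(signal + 1) was computed, the 77 control probe sets were removed, and the 13529 of 22548 probe sets above the 40th percentile of mean log2 signal were kept. Each pair of groups was fitted with limma 3.58.1 in R 4.3.3 with a mean-variance trend, with Benjamini-Hochberg adjustment over all kept probe sets at 0.05. The interaction and the test among the 4 groups used all 18 arrays. The methods' t-test stands for the unpaired test that the series design names. Fits were tested on simulated data. The replicate number in the labels was taken to pair arrays where the residuals of equal-numbered arrays correlated above 0.1 in every pair. That held for H2O2 with control (0.28 to 0.68) and for TRF+H2O2+TRF with TRF (0.35 to 0.69), and not for the other 3 comparisons, where the lowest correlation was between -0.22 and 0.02. The test of the replicate number and the contrast of exposed with unexposed groups were added after the data were seen.

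The genes described, the pathway lists and the tissue marker lists were chosen with earlier results of these data known. Named were all members, for each member the 3 genes of highest Pearson's r over the 18 arrays, and for each pathway list the gene of smallest p. No sequences are given. Alternatives were quantile normalization, median centring, another pseudocount and filter, no trend, array weights, the replicate block, the methods' t-test, leaving out the arrays numbered 5 and leaving out each array.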

Additional observations from a re-analysis of the deposited data

Results flagged for a closer look

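The gpx-1 signal of TRF replicate 4, 773, stood apart from the other 3 TRF arrays, which lay between 531 and 549. On the log2 scale its gap to the nearest of them was 0.9098 of the range of the group, above the critical value of 0.829 for 4 samples. Of the 28 sets of arrays tested in this way, 7 genes in 4 groups, this was the only one, and chance gives about 1 in 20. Without that array the log2 fold change of gpx-1 in TRF+H2O2+TRF against TRF was 0.18.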

How the results depend on the processing

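Of 1274 values of the 7 genes under the alternatives, 1170 kept their direction and their side of the threshold, 89 changed sign, 15 lost a call and 0 gained one. The log2 fold changes of gpx-3 in H2O2 against control, TRF+H2O2+TRF against control, TRF+H2O2+TRF against TRF and exposed against unexposed groups did not change sign in any alternative run. Runs that change only the filter, the trend or the test leave a fold change as it is, so they could not turn its sign. The sign changes outside the leaving out of single arrays were small values. In H2O2 against control, gpx-4 was -0.12 with quantile normalization, -0.070 with median centring and -0.020 with a pseudocount of 16, and gpx-5 was -0.049 with median centring, -0.14 with array weights and -0.057 without the arrays numbered 5. In TRF against control, gpx-7 was -0.0051 with quantile normalization and -0.013 with median centring. In TRF+H2O2+TRF against H2O2, gpx-4 was 0.032 with quantile normalization and with array weights, and 0.0090 with the replicate block and without the arrays numbered 5. In TRF+H2O2+TRF against control, gpx-4 was 0.13 with array weights and 0.063 with the replicate block and without the arrays numbered 5. In the interaction, gpx-7 was 0.016 with quantile normalization, 0.047 with median centring and 0.0035 with array weights, and gpx-5 was 0.11 with array weights. In exposed against unexposed groups, gpx-6 was -0.0037 with median centring, -0.045 with array weights and -0.023 without the arrays numbered 5. The cause was not tested for any of these.

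Leaving out single arrays gave log2 fold changes on both sides of 0 for these genes. In H2O2 against control they ran from -0.20 to 0.010 for gpx-1, from -0.28 to 0.20 for gpx-4, from -0.098 to 0.13 for gpx-5, from -0.35 to 0.025 for gpx-6 and from -0.079 to 0.19 for gpx-7. In TRF against control they ran from -0.49 to 0.078 for gpx-3. In TRF+H2O2+TRF against H2O2 they ran from -0.045 to 0.16 for gpx-1, from -0.13 to 0.35 for gpx-3, from -0.19 to 0.082 for gpx-4 and from -0.065 to 0.21 for gpx-7. In TRF+H2O2+TRF against control they ran from -0.12 to 0.021 for gpx-1, from -0.082 to 0.32 for gpx-2 and from -0.30 to 0.18 for gpx-4. In TRF+H2O2+TRF against TRF they ran from -0.0029 to 0.18 for gpx-1, from -0.33 to 0.025 for gpx-2, from -0.33 to 0.12 for gpx-5, from -0.030 to 0.37 for gpx-6 and from -0.054 to 0.21 for gpx-7. In the interaction they ran from -0.35 to 0.092 for gpx-5 and from -0.15 to 0.12 for gpx-7. In exposed against unexposed groups they ran from -0.074 to 0.036 for gpx-1, from -0.036 to 0.20 for gpx-4, from -0.15 to 0.070 for gpx-5, from -0.085 to 0.11 for gpx-6 and from -0.019 to 0.15 for gpx-7.

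Over all probe sets, TRF against control called 1, and 2 with median centring, 0 after adjustment of the methods' t-test and 1 to 2 with single arrays left out, the 2 being without TRF replicate 2. TRF+H2O2+TRF against control called 0, and 0 to 1 with single arrays left out, 1 without control replicate 4 or TRF+H2O2+TRF replicate 4. The test among the 4 groups called 0, and 0 to 1, with 1 without TRF+H2O2+TRF replicate 4. With the replicate block, TRF+H2O2+TRF against TRF called 1 and exposed against unexposed groups 7. The block moved no other comparison of groups, and it gave gpx-5 a log2 fold change of -0.28 in TRF against control with an adjusted limma p of 0.744. In that comparison 3 of 4 arrays correlated best with their own number. The test of the replicate number called 1185 probe sets, 113 to 905 with 1 number left out (449 without number 1, 113 without number 4), 277 without the TRF+H2O2+TRF group, 290 without the H2O2 group, 160 without the TRF group and 0 without the control group. In it, gpx-5 also lost its call without number 3 (adjusted limma p of 0.294), and gpx-6 without any 1 number (0.0538 to 0.128). With 4 or 5 arrays a group, the 95% intervals of most members include differences of 1.2-fold either way, and some include far larger ones. Over the 7 genes they reached from 0.575-fold to 2.56-fold in H2O2 against control. The reach was from 0.49-fold to 1.91-fold in TRF against control, and from 0.445-fold to 2.42-fold in TRF+H2O2+TRF against H2O2. The members closest to the filter were gpx-2 and gpx-4.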
